A study of Mus musculus with 6 samples.

Results

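Serum amyloid and acute-phase genes were compared between thymic and thyroid epithelial cells of the mouse, as a set of 9 genes chosen by name: Saa1, Saa2, Saa3, Saa4, Crp, Apcs, Orm1, Hp and Lcn2. They were read by 11 of the 41134 probes measured on all arrays, which stand for 27571 gene names. Each member is a gene whose name is carried by a non-control probe of the array. The set was proposed with the difference between the groups in view, so that difference is described here and not tested for the members. RNA from sorted cells of C57BL/6 mice was hybridised to 6 single-colour Agilent arrays. The 3 thymic samples were medullary cells, taken by a gate for Epcam and UEA1 (a fucose-binding lectin) without CD45 or the dead-cell dye Fluorogold. The thyroid gate was the same but did not use UEA1, and it also gave 3 samples. No genetic change or treatment is named for either group, and age and sex are not given. Pools of 6, 6 and 2 thymi made the thymic replicates and 20 thyroids went into every thyroid one, so the spread below is between pools and not between animals. In such bulk samples, fewer cells of a type and less RNA per cell cannot be told apart.

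Acute-phase proteins are plasma proteins whose production rises in inflammation, chiefly in the liver, when cytokines such as IL-6, IL-1 and TNF act through STAT3, C/EBP and NF-kB factors. Epithelia of the gut and airway, adipocytes and myeloid cells make some of them locally. Medullary thymic epithelium is known for producing proteins of many other organs, which are shown there to developing T cells.

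Of the members, SAA1 and SAA2 are the major inducible apolipoproteins of high-density lipoprotein and the precursors of amyloid A fibrils, SAA3 is the form made mainly outside the liver, and SAA4 is made constitutively. The 4 genes lie side by side on chromosome 7. On mm8, the build named by the arrays, the Saa3 probe is at chr7:46580703-46580762, the Saa4 probes at chr7:46597432-46597491 and chr7:46596334-46596393, and the Saa2 probe at chr7:46622207-46622266. The first Saa1 probe spans chr7:46608839-46609311, which is longer than its 60 bases, so it lies across an intron, and the second is at chr7:46608742-46608801. Both Saa1 probes and the Saa3 probe are shown because the array annotation links the Saa3 probe to Saa1 as well:
Saa1 probe 1: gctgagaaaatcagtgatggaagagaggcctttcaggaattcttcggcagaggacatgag
Saa1 probe 2: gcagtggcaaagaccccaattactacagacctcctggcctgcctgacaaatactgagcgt
Saa3 probe: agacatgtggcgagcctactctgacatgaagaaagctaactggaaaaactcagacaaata
No stretch longer than 8 bases is shared between Saa1 probe 2 and the Saa3 probe, and none longer than 5 between the Saa1 probes themselves. Probes for different parts of a transcript need not share bases, so these runs do not show which transcripts a probe reads. The array annotation lists the Saa1 transcript among the targets of the Saa3 probe. The RefSeq gene table gives Saa2 as an older name of Saa1 and Saa1 as an older name of Saa2. Whether these probes also read a paralog's RNA was not tested, so the split of signal between Saa1, Saa2 and Saa3 is uncertain.

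All 4 serum amyloid A genes were far higher in the thymic cells. Saa1 probe 2 gave processed signals, the scanner's background-subtracted brightness, of 37069, 36548 and 39661 on thymic arrays 1 to 3 and of 320.1, 184 and 312 on thyroid arrays 1 to 3. Every thymic value lay above every thyroid value, and this probe was well above background, a flag that the scanner software sets here at 13 background SDs, on all 6 arrays. On the log2 scale, with each array's 75th percentile subtracted as in all log2 levels here, the groups stood at 5.72 ± 0.14 and -1.30 ± 0.10 (SD, n = 3 each), a 130-fold difference. Saa1 probe 1 read 14078, 14324 and 15149.9 in thymic cells and 2.34, 2.63 and 3.97 in thyroid cells. It was well above background on no thyroid array, so the probes of this gene disagreed on detection in the thyroid cells. With the median over its probes, Saa1 differed by 9.58 in place of 7.02 on the log2 scale. By probe 1 alone the difference was at least 1363-fold, a bound that does not hold for probe 2. Here and below, "at least" sets the thymic mean against a thyroid mean in which each array has the higher of its own value and the lowest signal well above background on that array (7.49 to 11.1 on the thyroid arrays). These bounds depend on that floor and are no strict minimum.

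Saa2 gave thymic signals of 42219.7, 40633 and 44529.9 and thyroid signals of 15.4, 6.32 and 2.24, well above background on thyroid array 1 alone. The log2 levels were 5.89 ± 0.14 and -6.75 ± 1.37 (SD, n = 3 each), at least 3545-fold apart. Saa3 gave 31985, 31608 and 33831 in thymic cells and 17.9, 10.6 and 13.7 in thyroid cells, where arrays 1 and 3 were well above background. Its levels were 5.51 ± 0.14 and -5.56 ± 0.12, at least 2108-fold apart. In each of Saa1, Saa2 and Saa3 the thymic arrays lay within 0.30 of each other on the log2 scale, and replicate 3, of 2 pooled thymi, was the highest of them. Saa4 was dimmer on both of its probes. Probe 1 read 429.9, 301 and 401 in thymic cells and 2.35, 2.34 and 1.70 in thyroid cells, at least 35.1-fold apart. Probe 2 read 134, 83.6 and 127 against 2.47, 2.74 and 4.58, at least 10.6-fold apart. Neither Saa4 probe was well above background on a thyroid array.

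**Figure D1:**
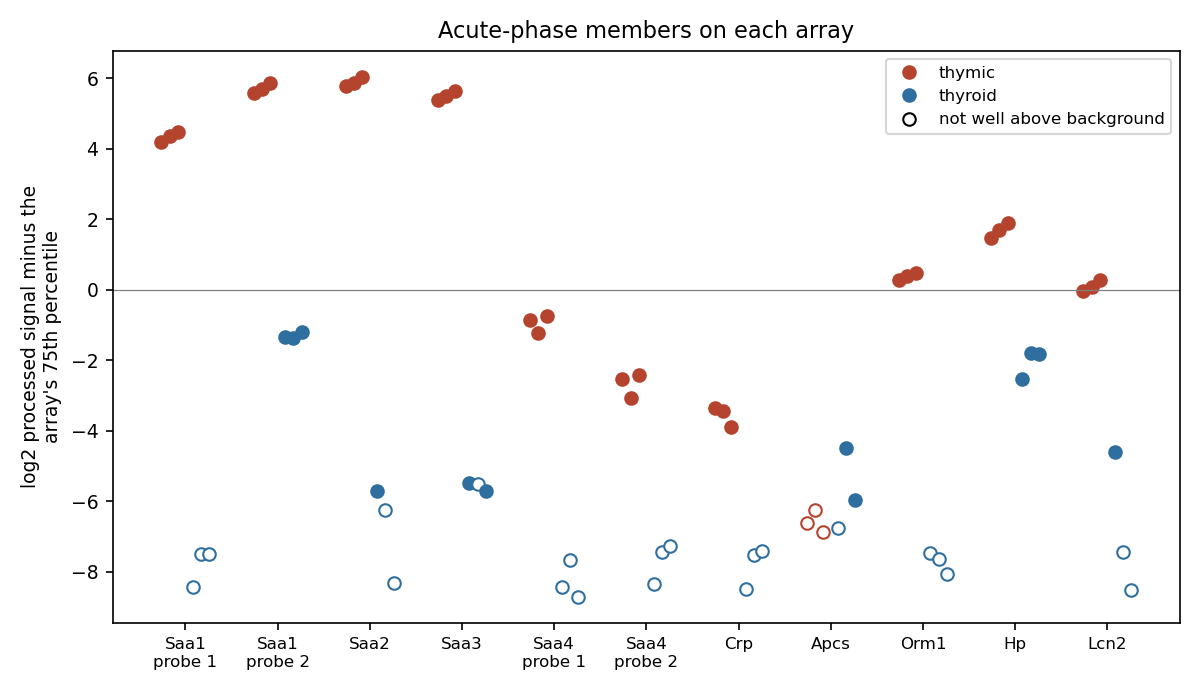
Log2 processed signal minus the array's 75th percentile (vertical axis) for the 11 probes of the 9 genes, with 1 point per array. Red points are thymic and blue points thyroid arrays, and open points mark spots that fell short of the background flag. Thymic and thyroid points do not overlap for any probe except that of Apcs.

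The pentraxins, ring-shaped proteins that bind microbial surfaces and dying cells, did not move together. Crp, which encodes C-reactive protein, a weak responder in the mouse, gave 76.0, 64.9 and 45.8 in thymic cells and 2.24, 2.59 and 4.20 in thyroid cells, where no array was well above background. The levels were -3.55 ± 0.29 and -7.81 ± 0.60 (SD, n = 3 each), at least 5.72-fold apart. Here thymic replicate 3 was the lowest of the thymic arrays. Apcs, which encodes serum amyloid P component, the main inducible pentraxin of the mouse, gave 7.83, 9.19 and 5.78 in thymic cells and 7.51, 21.0 and 11.5 in thyroid cells. It was well above background on thyroid arrays 2 and 3 and on no thymic array. The groups overlapped, at -6.58 ± 0.31 and -5.73 ± 1.14. Apcs was the 1 member left out of the test over all genes, which took only probes well above background on all 3 arrays of a group, and it is absent from all counts of tested members. The Crp probe lies at chr1:174535996-174536055 and the Apcs probe at chr1:174731503-174731562 (mm8).

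The carrier and antimicrobial proteins were higher in thymic cells. Orm1, which encodes the plasma carrier alpha-1-acid glycoprotein, gave 935, 917 and 949 in thymic cells and 4.53, 2.39 and 2.69 in thyroid cells, with no thyroid array well above background. Its levels were 0.39 ± 0.11 and -7.72 ± 0.30 (SD, n = 3 each), at least 87.7-fold apart. Hp, which encodes haptoglobin, the scavenger of free haemoglobin, gave 2144, 2259 and 2510.0 against 138, 138 and 202. It was well above background on all 6 arrays, and its levels of 1.69 ± 0.21 and -2.05 ± 0.43 differed 13.3-fold. Lcn2, which encodes the lipocalin that withholds iron-binding siderophores from bacteria, gave 753, 743 and 815 in thymic cells and 33.2, 2.74 and 1.94 in thyroid cells. Only thyroid array 1 was well above background, and the thyroid spread of Lcn2 (SD 2.02 on the log2 scale) was the widest of the members.

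Thyroid array 1 shared a slide with the 3 thymic arrays, while thyroid arrays 2 and 3 were on a second slide. Against thyroid array 1 alone, where Lcn2 and Saa2 were well above background, Lcn2 differed 26.1-fold and Saa2 3111-fold. With dim thyroid arrays at their floor, Lcn2 differed at least 49.7-fold over all arrays, at least 68.6-fold without thyroid replicate 1 and at least 34.7-fold when replicate 3 was left out. The plain folds of Lcn2, which rest in part on spots near background, were 125, 272 and 69.9. Saa2 differed at least 3545-fold over all arrays and at least 2811-fold without thyroid replicate 3, with plain folds of 6400.2 and 3731. On the shared slide Hp differed 18.8-fold, and Crp, not well above background on thyroid array 1, at least 6.35-fold. Whether the slide has a part in the Lcn2 and Saa2 values of thyroid array 1 was not tested.

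In all, 8 of the 9 members had signals well above background on every thymic array, and 2 (Saa1 and Hp) on every thyroid array. Another 3 (Saa4, Crp and Orm1) had such signals on no thyroid array. By comparison, the background flag covered between 78.5% and 81.0% of probes per thymic array, but only between 65.4% and 72.8% per thyroid array. The 3 thymic values lay above the 3 thyroid values in 8 of 8 tested members, where 42.1% of the 21381 genes tested showed that order and 34.4% the reverse. The choice of members used this contrast, so nothing is read from the count. The median log2 difference was 7.17 over the tested members, or 6.05 with dim groups at their floor, and 0.10 over all genes tested. Background correction changed the size of most member differences. With normexp correction, which adds a constant of 50 to every signal, Crp differed by 0.90, Saa4 by 2.73, Lcn2 by 3.29 and Orm1 by 3.90 on the log2 scale. Saa2 then differed by 9.16 in place of 12.64 and Saa3 by 8.56 in place of 11.07. Saa1, at 6.74 in place of 7.02, and Hp, at 3.36 in place of 3.74, were well above background on all thyroid arrays.

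**Figure D2:**
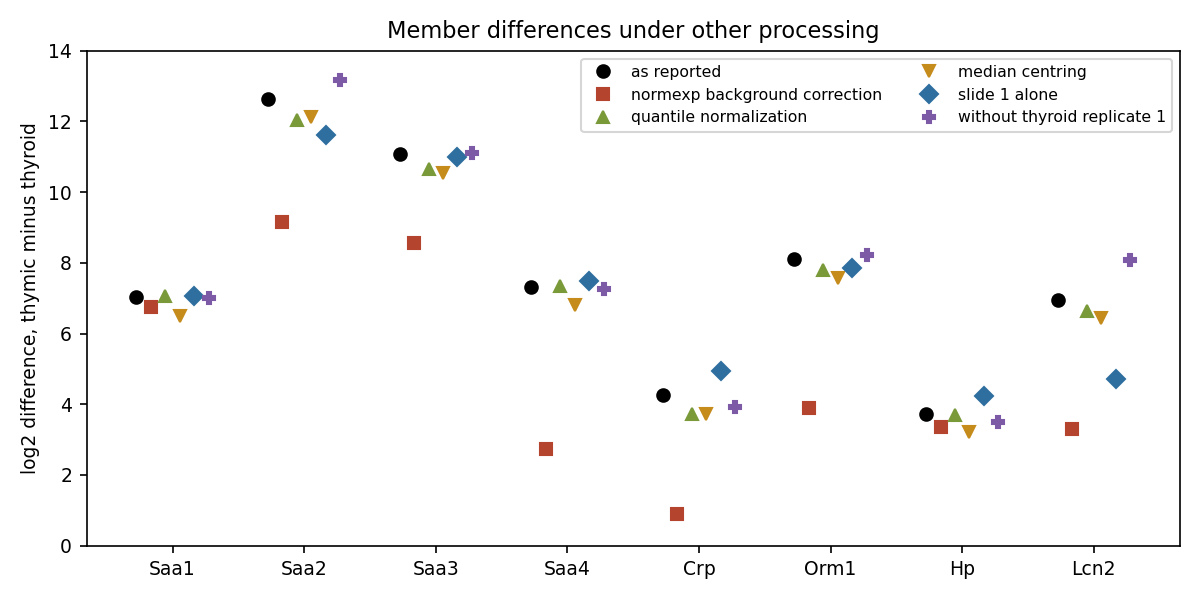
Log2 difference, thymic minus thyroid (vertical axis), of the 8 tested members as reported and under 5 other ways of processing. All points lie above 0, and those of Saa2, Saa3, Saa4, Crp, Orm1 and Lcn2 under normexp background correction are the lowest for their genes.

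Because members of a gene cluster can share regulatory sequence, the 250 bases before the start of each Saa gene are given from RefSeq (GRCm38.p6), 5′ to 3′ in the direction of the gene. Promoter entries were found for 7 members. Capitals mark matches, on either strand, to TTNNGNAA (C/EBP), to GG followed by NNN and TTTCC (NF-kB) and to TTCNNNGAA (STAT), where N is any base and matches may overlap:
Saa1, chr7:46742981-46743230, minus strand: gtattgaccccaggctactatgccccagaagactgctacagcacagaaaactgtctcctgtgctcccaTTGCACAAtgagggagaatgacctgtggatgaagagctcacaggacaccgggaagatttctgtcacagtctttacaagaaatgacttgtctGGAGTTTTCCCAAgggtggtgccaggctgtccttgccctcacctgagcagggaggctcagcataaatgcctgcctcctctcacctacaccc
Saa2, chr7:46751583-46751832, plus strand: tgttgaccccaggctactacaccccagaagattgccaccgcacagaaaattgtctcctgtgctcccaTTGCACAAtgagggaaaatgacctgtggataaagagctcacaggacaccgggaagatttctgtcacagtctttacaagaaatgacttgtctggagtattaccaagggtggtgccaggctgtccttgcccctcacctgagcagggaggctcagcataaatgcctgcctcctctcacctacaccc
Saa3, chr7:46715677-46715926, minus strand: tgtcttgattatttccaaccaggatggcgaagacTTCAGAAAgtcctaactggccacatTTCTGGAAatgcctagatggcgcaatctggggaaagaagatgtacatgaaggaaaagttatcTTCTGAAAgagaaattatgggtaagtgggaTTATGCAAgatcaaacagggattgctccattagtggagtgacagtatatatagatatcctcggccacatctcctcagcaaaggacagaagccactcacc
Saa4, chr7:46732604-46732853, minus strand: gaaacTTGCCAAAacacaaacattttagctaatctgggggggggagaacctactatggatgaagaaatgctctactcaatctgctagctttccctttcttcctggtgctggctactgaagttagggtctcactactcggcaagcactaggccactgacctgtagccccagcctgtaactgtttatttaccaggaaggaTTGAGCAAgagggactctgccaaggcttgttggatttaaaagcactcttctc

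The Saa1 and Saa2 windows were identical at 238 of 251 aligned positions (94.8%), whereas those of Saa1 and Saa3 were at 52.2% and of Saa1 and Saa4 at 49.5%. The C/EBP letters matched in all 4 Saa windows and in those of Crp and Lcn2, against 36.8% of 32851 promoter windows of this length, and not in that of Apcs. The NF-kB letters matched in Saa1 alone of the 7, from 91 to 82 bases before the start, against 4.63% of windows. There they overlapped a C/EBP match. The STAT letters matched in Apcs alone (7.02% of windows). A match is a description of the letters and does not show binding.

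The genes beside the members were examined because the choice of members did not use them. They were the 3 named genes on each side of each member or run of members in the RefSeq gene order. Of 30 such genes 26 were tested, and their median difference was -0.23. Of the tested ones, 10 were higher in thymic cells, 13 in thyroid cells and 3 did not pass (limma, Benjamini-Hochberg adjusted p under 0.05 over all genes). The background flag held on every thymic array for 26 neighbours and on every thyroid array for 19. The rest of the tested ones entered through the thymic arrays alone, which largely sets their direction. Where the flag had to hold throughout both groups, 4 neighbours in place of 10 were higher in thymic cells. Over all genes, 69.8% passed, 39.2% higher in thymic cells and 30.6% in thyroid cells. Of these calls 56.1% were higher in thymic cells, and 35.6% with median centring, which lowered the median difference of all genes from 0.10 to -0.43. Around the Saa cluster, Tph1, which encodes a tryptophan hydroxylase of serotonin synthesis, was 36.9-fold higher in thymic cells (limma adjusted p = 6.10e-07), 4 genes were higher in thyroid cells, among them Sergef at 2.31-fold, and Hps5, the gene next to Saa2, differed by 0.03 (adjusted p = 0.809, named after its values were seen). Around Orm1, 5 of 6 neighbours were higher in thymic cells, and all 5 entered the test through the thymic arrays alone. They included Ambp, which encodes the plasma protein precursor of alpha-1-microglobulin and bikunin (at least 218-fold, adjusted p = 3.93e-07), and the paralogs Orm2 (at least 99.8-fold, adjusted p = 3.93e-07) and Orm3 (at least 10.3-fold, adjusted p = 0.00263, named after its values were seen). Whether the probes of the paralogs Orm1, Orm2 and Orm3 read each other's RNA was not tested. Beside Hp, 2 of 6 neighbours were higher in thymic cells and 4, with Dhodh, an enzyme of pyrimidine synthesis, at 2.02-fold, in thyroid cells. Beside Lcn2, 1 was higher in thymic cells and 4 in thyroid cells, with Ptges2, a prostaglandin E synthase gene, at 3.52-fold.

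**Figure D3:**
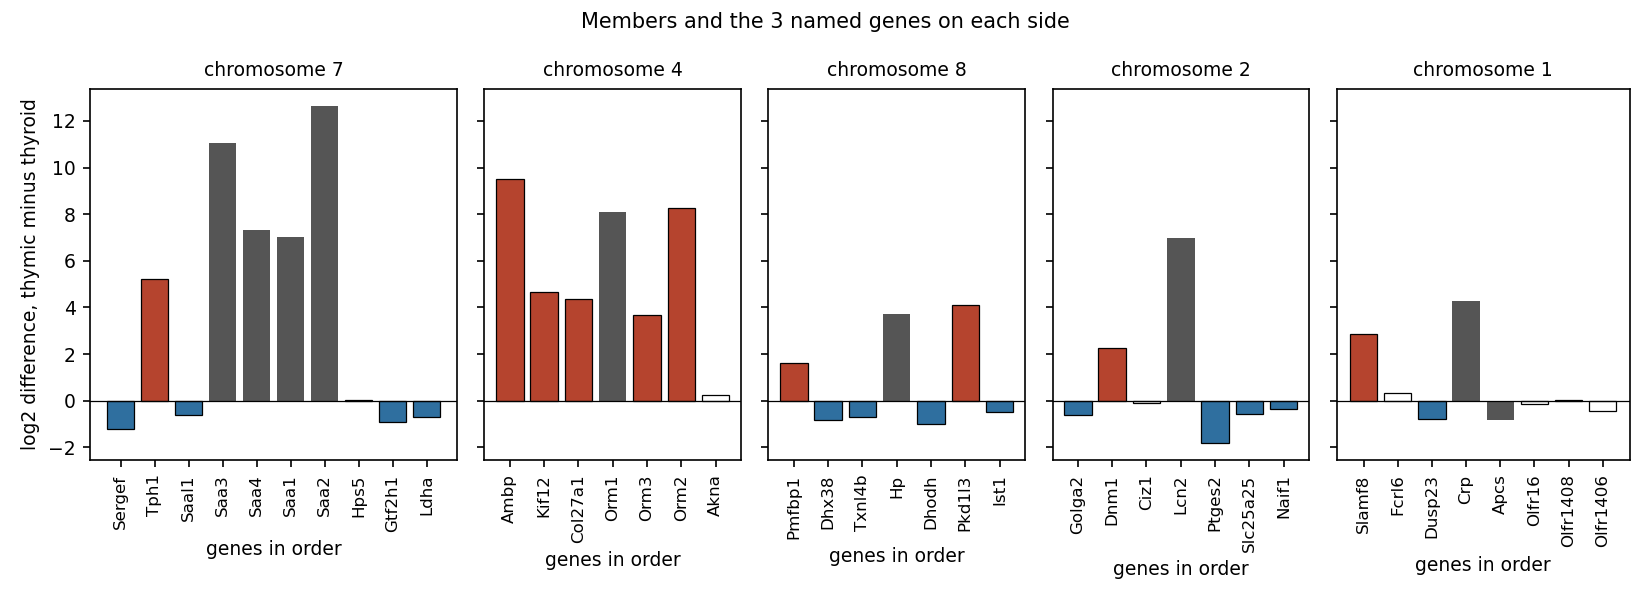
Log2 difference, thymic minus thyroid (vertical axis), of the members (grey) and the 3 named genes on each side, in chromosomal order (horizontal axis). Red bars passed as higher in thymic and blue bars as higher in thyroid cells, and white bars did not pass or were not tested. Red and blue bars stand beside the members on chromosomes 7, 8 and 2, with Tph1 at 5.20 the tallest red bar on chromosome 7 and Pkd1l3, at 4.12, taller than Hp (3.74) on chromosome 8. On chromosome 4, 5 of the 6 neighbours are red.

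Most other acute-phase genes on a list were higher in thymic cells. Of 24 tested, 17 were higher in thymic cells, 5 in thyroid cells and 2 did not pass, with a median of 2.92. Earlier results from these arrays were known when this list and those below were made, so their counts are descriptive. The share of all tested genes passing towards the thymic side was 39.2%, against 30.6% towards the thyroid side. The background flag held on all thymic arrays for 24 listed genes, and on all thyroid arrays for 15. Orm2 and Orm3 count both here and among the neighbours of Orm1. Hamp, which encodes the iron hormone hepcidin, exceeded its thyroid level at least 314-fold (limma adjusted p = 4.08e-07) and Fgg, a fibrinogen chain gene, at least 119-fold (adjusted p = 4.55e-06). Neither was well above background on any thyroid array. C3, the central complement component, was at 7.11 ± 0.11 against 2.37 ± 0.60 (SD, n = 3 each), and was named after its values were seen. Lrg1, which encodes a leucine-rich plasma glycoprotein that acts on endothelium, was in contrast 21.3-fold higher on the thyroid side (adjusted p = 3.83e-05), as was the metallothionein gene Mt1, by 4.95-fold (adjusted p = 4.29e-05). Endothelial markers moved in that direction too: 9 of 9 were higher in thyroid cells, with a summed level, in multiples of an array's 75th percentile, of 331 to 483 there and 2.96 to 3.02 in thymic cells. Their part in the Lrg1 difference was not tested. Ptx3, a long pentraxin gene, was 3.00-fold higher in thyroid cells by its brightest probe, but its difference turned from -1.59 to 2.12 with the median over its probes. When a probe had to be above background on all 6 arrays, 8 of the list were higher in thymic cells in place of 17.

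The cytokines that induce the acute phase went in both directions. Of 10 tested genes, 3 passed in each direction, with a median of 0.18. Among all tested genes, 39.2% passed as higher in thymic cells and 30.6% as higher in thyroid cells. Il6, the classical inducer in the liver, had thymic and thyroid levels of -1.82 ± 0.34 and 1.51 ± 0.68 (SD, n = 3 each) and was 10.02-fold higher in the latter (limma adjusted p = 1.76e-04). Csf3 was at least 4.44-fold and Clcf1 2.21-fold higher in thyroid cells. The thymic cells had more of Il22, a cytokine of lymphocytes that acts on epithelia (at least 54.3-fold, adjusted p = 4.97e-06, above background on no thyroid array), Tnf (25.35-fold, adjusted p = 1.99e-06) and Ctf1 (1.59-fold, adjusted p = 0.0206). The Ctf1 call ended with median centring, without thymic replicate 2 (adjusted p = 0.0692) and without thymic replicate 3 (adjusted p = 0.0532). With quantile normalization 5 of these cytokines were higher in thyroid cells. Il1b, named after its values were seen, did not pass, at -1.97 ± 0.25 against -1.66 ± 0.47 in thyroid cells (limma adjusted p = 0.312).

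Of 15 receptors, most of them for these signals and all tested, 4 had higher levels in thymic cells and 7 in thyroid cells (median -0.53). With median centring 2 and 11 did. The shares of all tested genes were 39.2% and 30.6%. This list, called cytokine receptors below, also holds the glucocorticoid receptor gene Nr3c1 and the interferon-gamma receptor gene Ifngr1. Both are among the 7. Il6st, which encodes the shared signalling chain gp130, was 4.44-fold higher in thyroid cells (limma adjusted p = 5.94e-05), the glucocorticoid receptor gene Nr3c1 4.22-fold and the TNF receptor gene Tnfrsf1a 3.08-fold. Il11ra1 was 10.7-fold higher in thymic cells (adjusted p = 1.10e-06), where Il17ra was also higher, at 1.97-fold (adjusted p = 0.00152). The binding chain gene Il6ra was 1.44-fold higher in thymic cells (adjusted p = 0.0186), but its direction turned with quantile normalization, median centring and the deposited value table, and its call ended without thymic replicate 2 and without thyroid replicate 1. Il22ra1, the binding chain of the IL-22 receptor, was near background in both groups, at -5.09 ± 0.17 in thymic and -5.44 ± 0.07 in thyroid cells. It was well above background on 2 of the 3 thyroid arrays. Its level was 0.35 higher in thymic cells (limma adjusted p = 0.0416), and it was named after its values were seen.

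Among transcriptional regulators of the acute phase, 17 of 26 tested were higher in thymic cells and 6 in thyroid cells (median 0.97). The shares of all tested genes were 39.2% and 30.6%. All 26 were well above background on every thymic array, and 21 on every thyroid array. Foxa3 and Hnf4a, factors of the liver and gut, were at least 5.61-fold (limma adjusted p = 1.11e-05) and 3.96-fold (adjusted p = 2.99e-05) higher in thymic cells, and neither was well above background on a thyroid array. The NF-kB genes Relb and Nfkb2 differed by 1.78 and 1.92 on the log2 scale, and Stat3, the factor downstream of IL-6, by 0.78 (adjusted p = 7.04e-04). Other NF-kB pathway genes of the list varied. Rel differed by 1.89, Nfkbia by 1.16 and Nfkb1 by 0.53. Rela was higher in thyroid cells (-0.60), and Nfkbiz did not pass (-0.10). All these genes were named after their values were seen. Higher in thyroid cells were Atf3 (2.27-fold, adjusted p = 0.0158) and Socs3, the feedback inhibitor of STAT3 signalling (2.19-fold, adjusted p = 0.0239). The call of Socs3 ended on leaving out thymic replicate 1 or 3 or thyroid replicate 1 or 2, and that of Atf3 without thymic replicate 3 and on slide 1 alone. Without thymic replicate 3, 3 regulators in place of 6 were higher in thyroid cells.

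Of 20 receptors and partners of the acute-phase proteins tested, 6 were higher in thymic cells and 10 in thyroid cells (median -0.39). Over all genes 39.2% were higher in thymic cells and 30.6% in thyroid cells. Scarb1, which encodes a receptor for high-density lipoprotein and serum amyloid A, was higher there by 93.0-fold (limma adjusted p = 2.48e-06), the scavenger receptor gene Cd36 by 31.8-fold (adjusted p = 4.85e-06) and Ager, which encodes the receptor for advanced glycation end products, by 168-fold (adjusted p = 4.73e-07). Cd36 is also known from endothelium, whose markers were all higher in thyroid cells, and their part in its difference was not tested. Lrp2, which encodes megalin, an uptake receptor for lipocalin 2 and other ligands, differed by -3.34. It was named after its values were seen. In the opposite direction, Fpr1 was at least 3.16-fold, Cd163, the macrophage receptor for haptoglobin bound to haemoglobin, at least 3.59-fold and Fcer1g 4.01-fold higher in thymic cells. The call of Fpr1 ended with normexp correction (adjusted p = 0.0709). These 3 genes are known from myeloid cells, whose markers moved the same way, as given below. The part of such cells in the differences of Fpr1, Cd163 and Fcer1g was not tested. In the same list Fpr2 and Tlr2 went towards the thyroid side, by at least 3.14-fold and by 7.46-fold. Both were named after their values were seen. Slide 1 alone leaves 1 thyroid array, whose spread had to be taken from the thymic ones. The counts there towards thymic and thyroid cells were 17 and 6 for the other acute-phase genes, 4 and 3 for the cytokines, 3 and 9 for their receptors, 16 and 4 for the regulators, and 7 and 10 for the receptors and partners of the proteins.

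**Figure D4:**
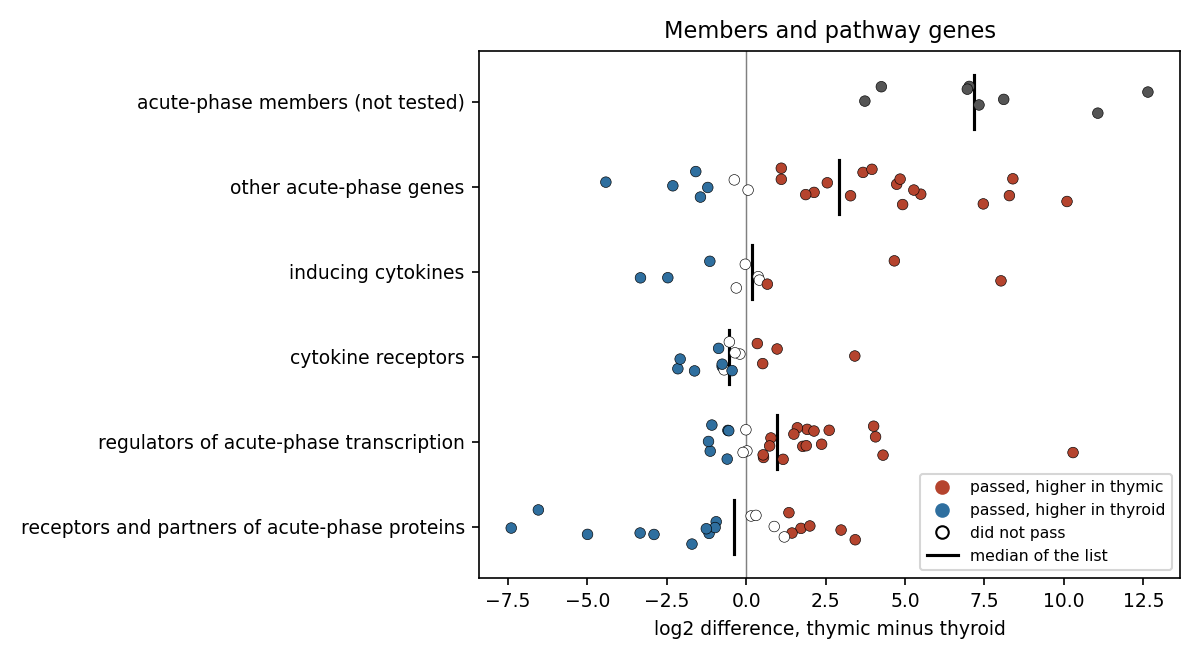
Log2 difference, thymic minus thyroid (horizontal axis), of the 8 tested members and the tested genes of 5 lists, with 1 point per gene and vertical scatter for display alone. Red and blue points passed as higher in thymic and in thyroid cells, white points did not pass, grey points are members and were not tested, and vertical lines mark medians, which run from -0.53 for the cytokine receptors to 7.17 for the members.

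The sorted populations matched their labels in part. All 9 medullary markers were higher in thymic cells, with Aire at 6.04 ± 0.16 against -6.04 ± 0.45 (SD, n = 3 each), and 7 of 9 follicular markers higher in thyroid cells, with Tg at 8.95 ± 0.24 against -1.83 ± 0.09. Epcam was 2.36-fold higher in thymic cells, and the CD45 gene Ptprc was 16.5-fold higher in them, at -0.95 ± 0.46 against -5.00 ± 0.17 (limma adjusted p = 1.05e-05). Both gates had been set against CD45. The thyroid samples also carried endothelial genes, with Emcn at 7.56 ± 0.36 and Kdr at 7.03 ± 0.19. The 9 endothelial markers summed to 331 to 483 on the thyroid arrays, and the 9 follicular markers to 569 to 742. The part of endothelial cells in the levels called higher in thyroid cells here was not tested. Cells known to make the members outside the thymus were followed through marker lists. Over all genes tested, 39.2% were higher in thymic cells. A gene dim on the thyroid arrays could enter the test only through the thymic arrays, which largely sets its direction. Of the neutrophil markers, 10 were well above background on all thymic arrays and 2 on all thyroid arrays. The marker counts are therefore descriptions only. All 10 tested neutrophil markers, of 13 measured, were higher in thymic cells, with summed levels of 48.0 to 65.5 there and 0.271 to 0.694 in thyroid cells, led by S100a8 (at least 752-fold) and S100a9 (at least 653-fold), which epithelia can also make. By plain values S100a9 was 687-fold higher, 1347-fold without thyroid replicate 2 and 358-fold when thyroid replicate 3 was left out. The neutrophil genes Elane and Csf3r were well above background on none of the 6 arrays. Of 11 macrophage and monocyte markers 10 were higher in thymic cells, with summed levels of 99.8 to 108 and 1.81 to 3.31. Lyz2, 107-fold higher, was by far the brightest of these in thymic cells (6.59 ± 0.07) and makes up most of the summed level there. Mrc1 was at least 54.7-fold higher, Csf1r 3.82-fold and Cd68 1.48-fold, and C1qa did not pass. Csf1r, Cd68 and C1qa were named after their values were seen. The part of neutrophils, macrophages and monocytes in the levels of Saa3, Hp and Lcn2, which they are known to express, was not tested.

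Markers of organs that secrete acute-phase proteins were also higher in thymic cells, as were 39.2% of all genes tested. Of 12 hepatocyte markers 11 were, with a median log2 difference of 5.02 (3.89 with dim groups at their floor), Apoa1 at least 48.7-fold and Apoh at least 21.8-fold. All 12 intestinal markers were, with a median log2 difference of 7.66 (6.65 with dim groups at their floor), among them Reg3g, an antimicrobial lectin gene, at least 9778-fold. In these lists 4 hepatocyte and 2 intestinal markers were well above background on all thyroid arrays, and 12 of each on all thymic arrays. Most thus entered the test through the thymic arrays alone. Of 9 microfold cell markers, which mark the antigen-sampling cells of gut epithelium, 6 were higher, with Ccl20 at least 1319-fold and Gp2 at least 631-fold. Gp2 rested on unequal thyroid arrays, at 1264-fold by its plain values, 3273-fold without thyroid replicate 2 and 605-fold when replicate 3 was left out. All 8 lung markers were higher, with the surfactant protein genes Sftpd at least 390.1-fold and Sftpa1 at least 56.6-fold. Adipocyte markers were mixed, with 5 of 7 higher in thymic cells, Cidec at 54.05-fold among them, and Pparg 3.97-fold higher in thyroid cells.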

How the data were processed

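Per the file headers, the authors' scanner files came from Agilent Feature Extraction 10.5.1.1 and give each spot's intensity, as a detrended, background-subtracted processed signal and as raw signals, with probes placed on mm8. The deposited value table holds a ratio: set against the scanner files, each column is the processed signal over that array's median. Of the spots, controls and those flagged as outliers (67 to 151 on an array) were dropped, repeats of a probe averaged, and no spot was saturated. Main values were log2 processed signals minus each array's 75th percentile over spots (476 to 805 in signal). Testing took probes flagged well above background throughout the 3 arrays of either group, and a gene was its brightest tested probe. Names came from the GRCm38.p6 gene table (24357 probes by accession, 6295 by symbol, 2423 by older symbol, 8059 kept). The comparison used limma 3.58.1 (R 4.3.3), two-sided and without covariates, and was checked on simulated data. The members and lists were chosen with earlier results of these data known. The genes named were all members, the 3 largest calls per direction in each pathway list and among neighbours (2 in marker lists), and the closest profiles. Alternatives were other background correction, scaling, filters, probe summaries, variances, slide and replicate blocks, and leaving out each array. Precision is limited by the number of arrays. Some results that the naming rule gave are not reported here.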

Additional observations from a re-analysis of the deposited data

How the results depend on the processing

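The direction of the tested members held under all alternatives run, and their differences ranged from 0.90 (Crp, normexp) to 13.16 (Saa2, without thyroid replicate 1). Their median of 7.17 became 3.63 with normexp, 6.64 with median centring, 6.65 with the deposited values, 5.38 with a filter for probes above background on all 6 arrays, where Saa1 and Hp alone were left, and 7.09 to 7.67 on leaving out an array. Median centring lowered all differences by a median of 0.53 and quantile normalization by 0.18. Genes higher in thymic cells numbered 8384, and 5014 with the filter on all 6 arrays. Genes higher in thyroid cells numbered 6549, and 11035 with median centring and 10966 with the deposited values. The share of calls towards the thymic cells was 56.1%, 48.0% with quantile normalization, 43.8% with the filter and 35.6% with median centring. Under that filter, 8 other acute-phase genes (of 17) and 4 neighbours (of 10) were higher in thymic cells. Cytokines higher in thyroid cells became 5 with quantile normalization. Cytokine receptors higher in thymic cells became 2 with normexp, quantile normalization, median centring and the deposited values, and 2 to 4 on leaving out an array (2 without thymic replicate 2 or thyroid replicate 1). Those higher in thyroid cells became 11 with median centring and with the deposited values. Regulators higher in thyroid cells became 3 with quantile normalization and 3 to 6 on leaving out an array. Single genes turned: Il6ra to -0.17 with quantile normalization, -0.0098 with median centring and -0.0012 with the deposited values, and, with the median over probes, Ptx3 to 2.12 and Cd8b1 to 2.30. The cause was not tested. The replicate numbers did not pair the samples (correlations of same-numbered deviations from -0.0667 to 0.00660). With them as a replicate block 14058 genes passed in place of 14933. Signals near background limit the dim side of most member differences.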

Other observations

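Profiles over the 6 arrays were compared between each tested member and all other named genes, as the root mean square difference of log2 values after each gene's own mean was subtracted. Among the closest were Spock3 (0.104) for Saa1, Cyp2a5 (0.627) and Aire (0.711) for Saa2, Krt20 (0.105) and Tmprss4 (0.285) for Saa3, and Trdn (0.0348) and Slc47a1 (0.0697) for Saa4. For Orm1 they were Btnl1 (0.104) and Ccl9 (0.123), for Crp Slc9a2 (0.165) and Pkd1l3 (0.167), for Hp Slc9b2 (0.0891) and Olfm4 (0.09001), and for Lcn2 Tm4sf20 (0.363) and Xlr5a (0.433). With 2 groups, such likeness mostly says that the genes differed between the groups by a similar amount.

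Of 10 tested thymocyte markers 9 were higher in thymic cells and 1, Cd8b1, in thyroid cells, against 39.2% and 30.6% of all genes. Cd8a was at least 31.6-fold and Rag1 at least 20.2-fold higher in thymic cells. Cd8b1 was 3.96-fold higher in thyroid cells by its brightest probe (limma adjusted p = 8.23e-06). With the median over its probes it was higher in thymic cells.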
